A study of Mus musculus with 4 samples.

Results

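The 9 genes described here encode heat shock chaperones of the cytosol and the mitochondrial matrix: Hspa8, Hsp90aa1, Hsp90ab1, Hspa4, Hsph1, Hspd1, Hspe1, Dnaja1 and Dnajb1. They were chosen by symbol from the 32285 genes of the count matrices, and all 9 were found. Nuclei of the basolateral amygdala, a region that ties sensory cues to threat and reward, were profiled by single-nucleus RNA sequencing in WT and DISC1-N mice; Disc1 encodes a scaffold protein linked to psychiatric illness. Each genotype had 2 libraries, replicate 1 and replicate 2. Both groups were C57BL/6J mice killed 6 h after tamoxifen, and bilateral tissue of 5 mice was pooled per group. The genotype label of the DISC1-N libraries reads DISC-N and their titles read DISC1; the labels state neither the allele, its promoter nor what tamoxifen acts on, nor the ages. Nothing says that the libraries of a genotype came from different mice, so p-values measure the spread between these libraries, which may be technical.

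Chaperones of the Hsp70 type hold unfolded stretches of other proteins through cycles of ATP binding and hydrolysis. J-domain partners start the cycle by triggering hydrolysis, nucleotide exchange factors end it, and the client can then pass to a Hsp90 dimer or, inside mitochondria, to the barrel of Hsp60 closed by Hsp10. Many of these genes carry heat shock elements, arrays of inverted GAA units bound by heat shock factors, and neurons are known for a high constitutive supply of Hsc70 and Hsp90.

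A heat shock element was searched in RefSeq promoter windows (GRCm38.p6, 250 bases before to 50 after each annotated start), as TTCNNGAANNTTC and, for the other strand, GAANNTTCNNGAA. The windows covered 6 of the 9 genes; Hspa8, Hsp90aa1 and Hsp90ab1 had no entry. Hspd1, Hspe1 and Hsph1 held the letters, against 179 of 27025 genes (0.662%) and 198 of 32851 windows (0.603%). Hspd1 and Hspe1 run in opposite directions on chromosome 1 from starts 111 bases apart and share the same stretch, shown because 2 overlapping matches lie in it; capitals mark the matched letters.
Hspe1, chr1:55088053-55088082, + strand: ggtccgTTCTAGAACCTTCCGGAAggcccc
Hspd1, chr1:55088053-55088082, - strand: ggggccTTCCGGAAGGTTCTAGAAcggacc
Hsph1, chr5:149636280-149636308, - strand: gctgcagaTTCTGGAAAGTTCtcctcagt
The shared element ended 72 bases before the Hspe1 start (positions -89 to -72) and lay at -144 to -127 of 1 of the annotated Hspd1 starts. The window of the other annotated Hspd1 start held no match. From the Hspd1 gene start used for the distance of 111 bases, the stretch lies after the start, inside the gene model. The match in Hsph1 lay after the start, at 15 to 27 or 36 to 48 according to the annotated start used. The letters were not found in the windows of Hspa4, Dnaja1 and Dnajb1. A match describes the sequence and does not show that a factor binds there.

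On mm10 the genes lie on 8 chromosomes. Hspa8 (ENSMUSG00000015656) spans chr9:40800984-40810087, Hsp90aa1 (ENSMUSG00000021270) chr12:110690605-110702728, and Hsp90ab1 (ENSMUSG00000023944) chr17:45567775-45573271. Hspa4 has the longest gene model of the 9, 40.6 kb, and Hspe1 the shortest, 3.18 kb. Hspd1 and Hspe1 overlap on opposite strands, as do Dnaja1 and Smu1. Retrocopies of several members exist in the mouse genome, and reads shared with them could be lost or split, so the counts of the 9 genes are uncertain to that extent. Whether intronic reads were counted is not given in the sources used here.

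The matrices held 27313 barcodes in 4 libraries of 37840301 to 48439711 unique molecular identifiers (UMIs, counted RNA molecules), and 5 to 21 barcodes were shared by a library pair. Of 26850 nuclei that passed a minimum of 500 genes and a maximum of 5% mitochondrial UMIs, 16502 could be assigned to 1 of 9 classes by their own marker UMIs. There were 4686 excitatory neurons, 3110 inhibitory neurons, 3327 astrocytes, 2464 mature oligodendrocytes, 1218 oligodendrocyte precursors, 1393 microglia and 122 mural cells; the 122 endothelial cells and 60 differentiating oligodendrocytes fell below 20 nuclei in a library and were not tested. Every class held its own markers: in excitatory neurons all 8 were detected in each library and summed to 941 to 999 CPM (UMIs scaled to the same total in each class and library), against 16.8 to 59.8 CPM for markers of inhibitory neurons. In the excitatory class, 2309 of the nuclei met the gate but not a stricter one, and a further 2216 nuclei led by excitatory markers were left out as mixed. The libraries differed both by number and by genotype: mitochondrially encoded transcripts in excitatory neurons made up 1227 and 600.3 CPM in WT and DISC1-N of replicate 1 and 421 and 209 CPM in replicate 2, and Cell Ranger was at version 7.0.0 for replicate 1 but 6.0.2 for replicate 2 in the headers. The default treatment of intronic reads changed between these versions, so their counting may differ between the replicate numbers, which was not tested. Values are therefore given in the order WT replicate 1, DISC1-N replicate 1, WT replicate 2, DISC1-N replicate 2, and genotypes are compared both without and with a block for the replicate number.

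The Hsp70 of the resting cell, Hspa8, was lowest in excitatory neurons and highest in mural cells when counted as CPM, that is, as a share of a class's UMIs. Its mean over the 4 libraries was 79.2 CPM in excitatory neurons (46.4 to 109.8), 155 in inhibitory neurons (84.9 to 216), 259 in astrocytes (146 to 369.8), 273 in oligodendrocyte precursors (138 to 356), 334 in mature oligodendrocytes (183 to 484), 432 in microglia (287 to 550.0) and 579 in mural cells (269 to 878). Within each library the excitatory value was the lowest of the 7, although the ranges of neighbouring classes overlapped across libraries. In an edgeR fit with library as a block, Hspa8 was higher in inhibitory than in excitatory neurons (log2 0.77 ± 0.11 SE, adjusted p = 2.06e-07), a contrast in which 39.7% of all genes were called. It was higher in astrocytes than in inhibitory neurons (0.75 ± 0.11, adjusted p = 1.96e-07 by edgeR, 58.2% called) and in mature oligodendrocytes than in precursors (0.36 ± 0.11, adjusted p = 0.0140 by edgeR, 33.6% called). The neighbours that did not differ beyond their spread were mural cells and microglia (0.01 ± 0.17), microglia and mature oligodendrocytes (0.11 ± 0.11), and precursors and astrocytes (-0.00 ± 0.11), contrasts in which 16.3%, 35.5% and 33.3% of genes were called.

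The Hsp90 genes followed the same order in mean CPM. Hsp90aa1, the more stress-inducible Hsp90, averaged 104 CPM in excitatory neurons and 473 in mural cells, and Hsp90ab1, the constitutive one, 102 and 510.2. In the fit, Hsp90aa1 was furthest above excitatory neurons in mature oligodendrocytes (excitatory minus mature -1.77 ± 0.11 on the log2 scale, excitatory minus mural -1.33 ± 0.20). For each of Hsp90aa1, Hsp90ab1 and Hspa8, 3 of the 6 contrasts between neighbouring classes were called, the same 3 in each gene. With a library left out, 2 to 3 were called for Hspa8 (2 without either WT library or DISC1-N replicate 2) and 2 to 3 for Hsp90ab1 (2 without WT replicate 2). Hspa4, which like Hsph1 is a nucleotide exchange factor of the Hsp110 type, was flat by comparison: 80.7 CPM in excitatory neurons, 85.1 in precursors, 91.6 in inhibitory neurons, 95.3 in astrocytes, 108 in mature oligodendrocytes, 119 in mural cells and 162 in microglia. Excitatory neurons differed from microglia in Hspa4 (log2 -0.52 ± 0.12, adjusted p = 1.63e-04 by edgeR; 62.3% of genes were called), but not beyond the spread from inhibitory neurons (0.01 ± 0.10), astrocytes (-0.04 ± 0.10, 66.5% called) or precursors (0.19 ± 0.12, 54.4% called). The estimates against inhibitory neurons and precursors ran against the CPM, as did that against mural cells (0.36 ± 0.29). For the mitochondrial pair, Hspd1 (Hsp60) rose from 25.8 CPM in excitatory neurons to 96.5 in mural cells and Hspe1 (Hsp10) from 21.6 to 90.4 in microglia. For Hspd1 the difference from mural cells did not pass in the fit (excitatory minus mural -0.90 ± 0.43, adjusted p = 0.121 by edgeR). Excitatory minus microglia was -1.17 ± 0.16 for Hspd1. The J-domain gene Dnaja1 went from 76.9 CPM in excitatory neurons to 219 in mural cells, and Dnajb1, the partner most tied to stress, was scarce everywhere at 3.62 to 13.8 CPM.

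**Figure D1:**
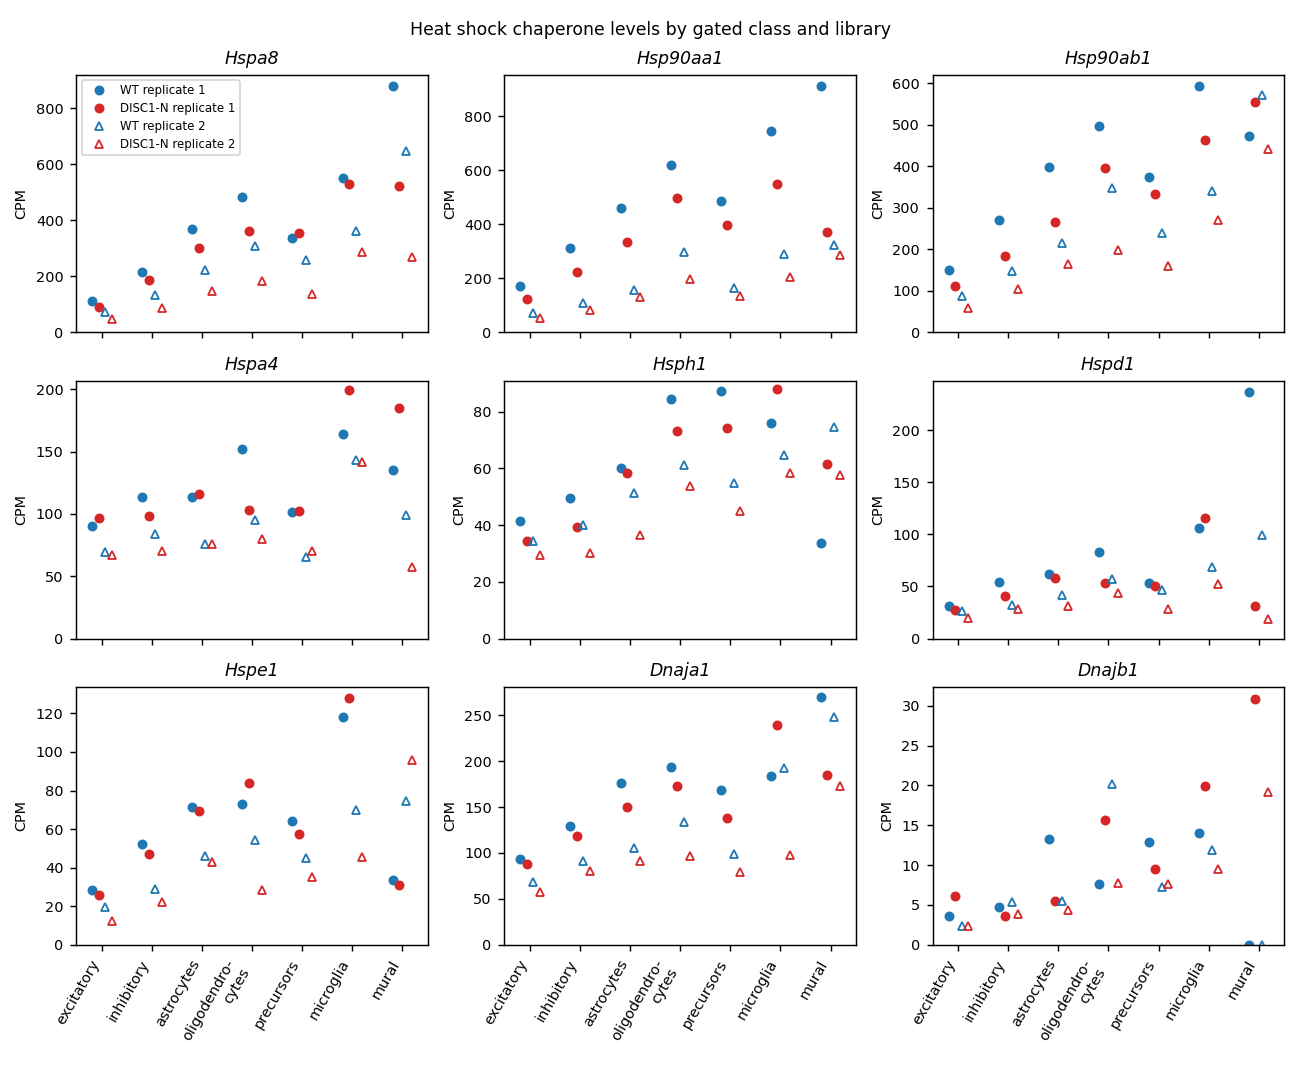
CPM of each of the 9 genes (vertical axes, separate scales from 0) in 7 gated classes (horizontal axis), 1 point per library; blue is WT, red DISC1-N, filled circles replicate 1 and open triangles replicate 2. Excitatory neurons have the lowest mean CPM of every gene, and for Hspa8 they lie between 46.4 and 109.8 CPM.

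On a scale of UMIs per nucleus the order turned over. A mean excitatory nucleus held 0.949 Hspa8 UMIs, more than an inhibitory nucleus (0.830), a mural nucleus (0.788), an oligodendrocyte (0.711), an astrocyte (0.663), a microglial nucleus (0.656) or a precursor (0.647). The same nuclei differed far more in depth, from 11609 UMIs per excitatory nucleus to 1336 per mural nucleus. Hspa8 in mural cells was thus 7.32 times the excitatory level in CPM and 0.830 times in UMIs per nucleus, and the fit gave a smaller difference than the CPM (excitatory minus mural -1.99 ± 0.18 on the log2 scale). Hspa4 in microglia was 2.01 times the excitatory level in CPM and 0.250 times in UMIs per nucleus, and it fell to 0.168 UMIs in mural nuclei from 0.962 in excitatory ones. The summed mitochondrially encoded transcripts, which are not made in the nucleus, moved with Hspa8 and the Hsp90 genes on both scales, at 614 CPM in excitatory neurons and 3316 in mural cells but 7.51 and 4.75 UMIs per nucleus. The part of depth and of RNA from outside the nucleus in the order of the classes was not tested.

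**Figure D2:**
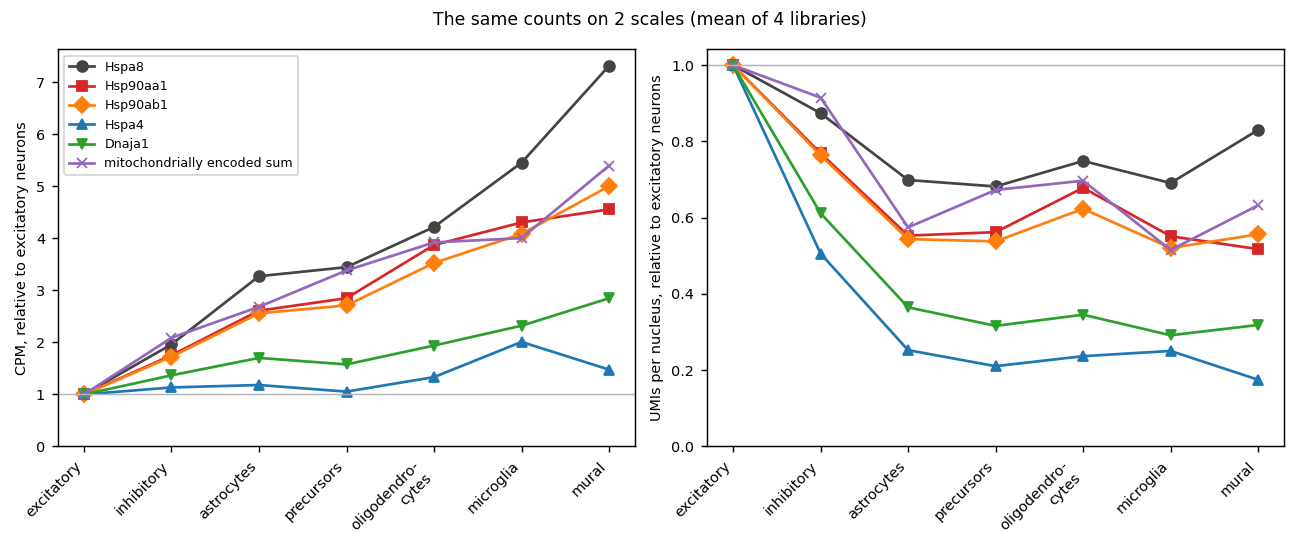
Level of 5 members and of the mitochondrially encoded sum in each class divided by its level in excitatory neurons (mean of 4 libraries), as CPM on the left and as UMIs per nucleus on the right. Hspa8 rises to 7.32 times the excitatory level in CPM and is at 0.682 to 0.874 times in UMIs per nucleus, while Hspa4 falls furthest on the right, to 0.175 times.

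Shallow and deep nuclei were also compared within a single class. In excitatory neurons the deeper nuclei (above the class median in their library) held on average 2.55 times the UMIs of the shallower ones, with these ratios averaged over the 4 libraries. Hspa4 UMIs were 2.29 ± 0.51 (SD, n = 4) times as many in the deeper nuclei and Hsph1 UMIs 2.11 ± 0.40 times, close to the depth. Hspa8 rose 1.45 ± 0.23 times, Hsp90aa1 1.48 ± 0.06, Hsp90ab1 1.21 to 1.75 by library and Hspe1 1.52 ± 0.27, near the 1.46 ± 0.22 of the mitochondrially encoded sum. Hspd1 (1.88 ± 0.34), Dnaja1 (2.03 ± 0.46), Hsph1 (2.11 ± 0.40) and Dnajb1 (2.13 ± 0.40) lay between. In astrocytes, at a depth ratio of 2.19, Hspa8 rose 1.24 ± 0.17 times, Hsp90aa1 1.17 ± 0.20, Hsp90ab1 1.24 ± 0.11 and Hspa4 2.20 ± 0.38, but Hsph1 only 1.57 ± 0.28. In inhibitory neurons, at a depth ratio of 2.04, Hspa8 rose 1.27 ± 0.19 times and Hsph1 2.03 ± 0.51, while Hspa4 (1.65 ± 0.35) lay near the mitochondrially encoded sum (1.51 ± 0.50). In mature oligodendrocytes, at a depth ratio of 2.71, Hspa4 rose 1.96 ± 0.44 times and Hsph1 1.88 ± 0.62, both short of the depth. Hspa8 rose 1.19 ± 0.07 times there and the mitochondrially encoded sum 1.56 ± 0.29. These ratios were described and not tested.

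Across the 28 sums of class and library, Hspa8, Hsp90aa1, Hsp90ab1 and Dnaja1 had pairwise Pearson correlations of log2(CPM + 1) of 0.92 to 0.97. Hspa4 stood further off (0.69 with Hspa8, 0.65 with Hsp90ab1) and Dnajb1 furthest (0.19 with Hspa8, -0.17 with Hspd1). The mitochondrial partners Hspd1 and Hspe1, which act as 1 machine, had 0.56. Some of these sums hold few molecules: mural nuclei averaged 0.132 Hspd1, 0.0731 Hspe1 and 0.0182 Dnajb1 UMIs. The part of low counts in the lower correlations was not tested. Of 7735 other genes, those most like the summed chaperone CPM included the ATP synthase gene Atp5j (0.971), the complex I gene Ndufb8 (0.970), the glycolytic gene Pgam1 (0.969) and Fau (0.967), and those most like Hspa8 were Pgam1 (0.989), Ppia (0.982) and Actg1 (0.979). Cox8a (0.976), Atp5h (0.974) and Pebp1 (0.972) were nearest to Hsp90ab1, and Tpi1 (0.941), Npm1 (0.913) and Ndufb11 (0.907) to Hspd1. The points share libraries, depth and class composition, so these correlations describe the data only.

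In excitatory neurons WT replicate 1 exceeded WT replicate 2 in all 9 members. Over the 7 tested classes the ratio of the WT libraries, replicate 1 to replicate 2, was 2.09 to 2.93 for Hsp90aa1, 1.30 to 1.67 for Hspa8, 1.15 to 1.60 for Hspa4 and 1.14 to 2.38 for Hspd1, above 1 in every class. The other members fell below 1 in at least 1 class: Hsp90ab1 ranged from 0.827 to 1.86, Hsph1 from 0.453 to 1.59, Hspe1 from 0.453 to 1.79, Dnaja1 from 0.955 to 1.71 and Dnajb1 from 0.381 to 2.43. The replicate number coincides with the version of Cell Ranger in the headers and with the mitochondrially encoded level, and these cannot be told apart.

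Within each replicate number, most of the 9 genes were lower in DISC1-N than in WT excitatory neurons. Hspa8 stood at 109.8, 89.0, 71.4 and 46.4 CPM, so both DISC1-N values lay below their own WT partner but DISC1-N replicate 1 lay above WT replicate 2. Hsp90aa1 stood at 170.0, 123, 69.5 and 52.7 CPM. Hsp90ab1 stood at 151, 111, 87.3 and 58.1 CPM. The order was the same for the 3 genes: the replicate 1 pair above the replicate 2 pair, with DISC1-N the lower of each pair. In terms of molecules, Hspa8 had 1.37, 1.30, 0.663 and 0.469 UMIs per nucleus. Lower CPM in both replicate numbers was found for 7 of the 9 genes in excitatory neurons, against 28.3% of 16425 genes tested there. In no member did both DISC1-N libraries lie below both WT libraries, a pattern that 8.51% of genes had.

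Without the block, edgeR called none of the 9 genes between the genotypes in excitatory neurons, and 0 of all 16425 genes. No member reached an unadjusted p under 0.05, which 94 of all genes did; DESeq2 and limma-voom without the block also called 0. The estimates were negative for 7 members with a median of -0.29 on the log2 scale, where the median over all genes was -0.00. Once the replicate number entered the model as a block, edgeR called Hsp90ab1 (log2 -0.51 ± 0.07 SE, adjusted p = 4.88e-06), Hsp90aa1 (-0.44 ± 0.07, adjusted p = 1.47e-04) and Hspa8 (-0.45 ± 0.08, adjusted p = 3.67e-04) lower in DISC1-N, 3 of 9 members where 0.457% of all genes were called lower. This fit has 1 residual degree of freedom and borrows its spread from all genes. DESeq2 with the block called Hsp90ab1 alone (-0.51 ± 0.12, adjusted p = 0.0479) and gave Hsp90aa1 an adjusted p of 0.444.

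The exchange factors, the mitochondrial pair and the J-domain genes did not pass, except that Hspe1 did with the block when nuclei above 3 times the median depth were left out (-0.45 ± 0.12, adjusted p = 0.0323 by edgeR). Hsph1 stood at 41.4, 34.5, 34.4 and 29.3 CPM (-0.24 ± 0.10 with the block, adjusted p = 0.353 by edgeR), the WT value of replicate 2 being nearly that of DISC1-N replicate 1. Hspd1 stood at 30.8, 27.0, 26.0 and 19.6 CPM (-0.29 ± 0.11, adjusted p = 0.285 by edgeR). Hspe1 stood at 28.5, 25.7, 19.8 and 12.4 CPM (-0.37 ± 0.12, adjusted p = 0.147 by edgeR). All 3 were lower in both DISC1-N libraries than in their partners without passing over all genes. Dnaja1 stood at 93.1, 88.0, 68.6 and 57.9 CPM (-0.16 ± 0.08, adjusted p = 0.625 by edgeR). Hspa4 was at 90.2, 96.4, 69.6 and 66.7 CPM, with an estimate of 0.02 ± 0.08. This near-zero estimate set Hspa4 apart from Hspa8, its Hsp70 partner, in the same nuclei, though the difference between the genes was not tested. Dnajb1, at 3.61, 6.13, 2.38 and 2.35 CPM, rested on few molecules (0.46 ± 0.26).

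The mitochondrially encoded sum moved the same way as the chaperones in excitatory neurons, at 1227, 600.3, 421 and 209 CPM, and so, less so in replicate 1, did the sum of 86 ribosomal protein genes at 4174, 4048, 2798 and 2363 CPM. DISC1-N excitatory nuclei were also the deeper ones, with medians of 8815, 10071.5, 8642 and 9461 UMIs. Markers of other classes did not move alike. Oligodendrocyte markers summed to 47.6, 48.3, 13.3 and 12.5 CPM, and astrocyte markers to 70.0, 73.0, 37.6 and 35.7, both higher in replicate 1. Microglial markers summed to 50.5, 63.2, 42.7 and 46.6 CPM, endothelial markers to 41.2, 47.8, 47.5 and 49.9 and mural markers to 8.44, 10.5, 8.14 and 8.83, higher in DISC1-N in both numbers. Each of these lists had a median of 0 UMIs per nucleus. When only nuclei under 0.1% mitochondrial UMIs were kept, which left 465, 783, 1238 and 1315 excitatory nuclei, Hspa8 stood at 82.9, 80.7, 69.1 and 46.0 CPM and Hsp90ab1 at 120.4, 105, 85.04 and 57.5. The difference in replicate 1 shrank and that in replicate 2 hardly moved. None of the 3 calls held there with the block: edgeR gave -0.32 ± 0.10 (adjusted p = 0.640) for Hspa8, -0.31 ± 0.09 (adjusted p = 0.400) for Hsp90aa1 and -0.39 ± 0.09 (adjusted p = 0.172) for Hsp90ab1. Under a limit of 1%, Hsp90ab1 and Hsp90aa1 passed and Hspa8 did not (adjusted p = 0.0926 by edgeR). The part of depth, ribosomal protein transcripts and RNA of other classes in the difference was not tested.

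**Figure D3:**
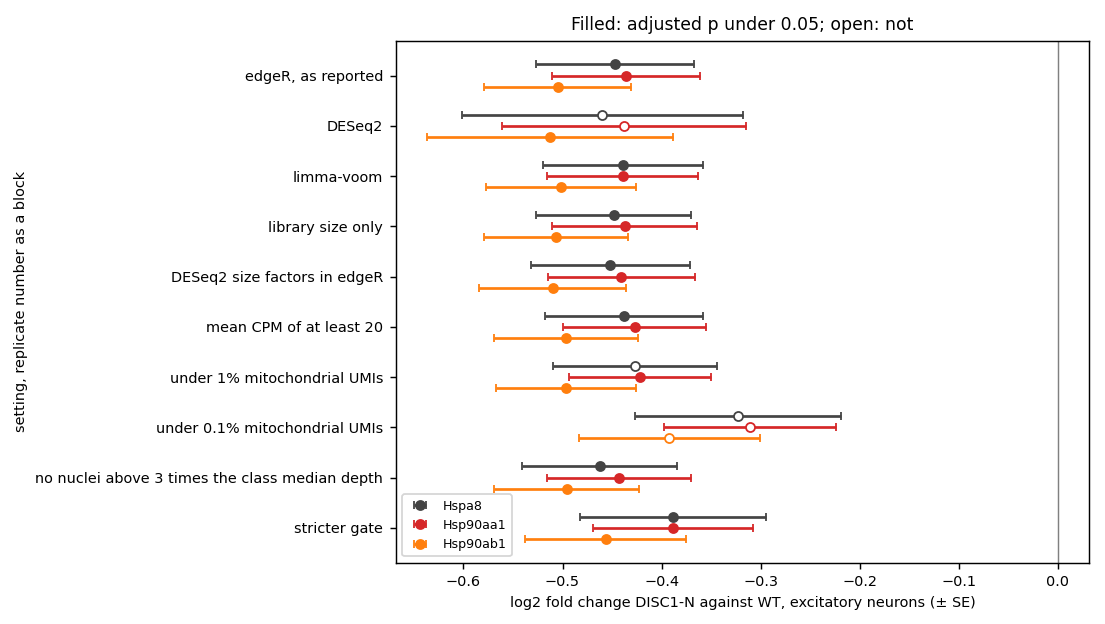
Log2 fold change of DISC1-N against WT in excitatory neurons (horizontal axis, points with SE bars) for Hspa8, Hsp90aa1 and Hsp90ab1 under each setting that includes a block for the replicate number (vertical axis); filled points passed an adjusted p of 0.05. Every estimate shown is below 0, and for each gene the estimate under 0.1% mitochondrial UMIs is the smallest, at -0.32, -0.31 and -0.39.

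Inhibitory neurons and astrocytes gave estimates of similar size for the same genes. In inhibitory neurons Hsp90ab1 stood at 269.7, 183, 147 and 103 CPM, Hsp90aa1 at 311, 224, 109 and 83.2, and Hspa8 at 216, 187, 132 and 84.9. DISC1-N was again the lower of each pair. All 9 genes were lower in both replicate numbers, against 30.7% of 13566 genes tested, and in 2 of them, Hsph1 and Dnajb1, both DISC1-N libraries lay below both WT libraries (11.6% of genes). Without the block none was called by edgeR, DESeq2 or limma-voom, and no member had an unadjusted p under 0.05. With it edgeR called Hsp90ab1 (-0.52 ± 0.08, adjusted p = 0.0116), 1 of 9 members where 0.118% of genes were called lower, while Hsp90aa1 (-0.41 ± 0.08, adjusted p = 0.0694) and Hspa8 (-0.41 ± 0.10, adjusted p = 0.181) missed. The mitochondrially encoded sum was 2540, 1366, 766 and 459.6 CPM. Among the 58, 165, 935 and 939 inhibitory nuclei under 0.1% mitochondrial UMIs, Hspa8 turned in replicate 1, where WT had 135 CPM and DISC1-N 158. No member was called there with the block, nor by DESeq2 with the block in all inhibitory nuclei.

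In astrocytes Hsp90ab1 stood at 399, 266, 214 and 165 CPM, and 8 of 9 genes were lower in both replicate numbers (29.1% of 12596 genes). The block fit called Hsp90ab1 (-0.46 ± 0.11, adjusted p = 0.0338 by edgeR), 1 of 9 where 0.103% of genes were called lower; Hspa8 narrowly missed (-0.43 ± 0.11, adjusted p = 0.0529) and Hspa4 was at 0.03 ± 0.14. The mitochondrially encoded sum was 2951, 2188, 689.7 and 767 CPM, lower in DISC1-N in replicate 1 and higher in replicate 2. Median depth was 2022, 2032, 1883 and 1991.5 UMIs, higher in DISC1-N in both numbers as in excitatory neurons. Without the block edgeR, DESeq2 and limma-voom called no member in astrocytes, and none had an unadjusted p under 0.05. With the block, no member was called in astrocytes by DESeq2 or limma-voom, under the stricter gate or under 0.1% mitochondrial UMIs.

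No other class had a call by edgeR with or without the block at the settings used throughout. In mature oligodendrocytes 2 members were called with the block at a mean CPM of at least 20 (14 of 7623 genes). Under the stricter gate 2 were called (24 of 10078 genes). With the block, 5 of 9 members had an unadjusted p under 0.05 by edgeR in mature oligodendrocytes, as had 701 of 11235 genes. In precursors 2 of 8 members had (398 of 9636 genes) and in microglia 1 of 8 (571 of 9121). In mural cells 1 of the 3 tested had (40 of 602 genes). Without the block no member had. By adjusted p the block fit called 0.0178%, 0.0208%, 0.0658% and 0% of all genes lower in these classes. Mature oligodendrocytes came closest with Hspa8, at 484, 362, 307 and 183 CPM (adjusted p = 0.0543 by edgeR with the block), and 7 of 9 genes were lower in both numbers there (27.4% of genes). In precursors the count was 6 (25.2%), in mural cells 4 (25.4%) and in microglia 3 (27.3%), the last near the background. These counts are of all 9 members, whereas the shares are of tested genes only. The tested genes held 8 members in precursors, 3 in mural cells and 8 in microglia, so count and share cover unlike sets there. Across the 7 tested classes Hsp90aa1, alone of the 9, was lower in DISC1-N in both replicate numbers in every one, and Hspa8, Hsp90ab1, Hspd1 and Dnaja1 were in 6. Hspa4 was in 2. In endothelial cells, too few to test, Hsp90aa1 went the other way at 320.3, 567, 181 and 229 CPM, with 16 nuclei in the smallest library. The genotype difference was compared between excitatory neurons and inhibitory neurons, astrocytes or mature oligodendrocytes by an interaction term in edgeR, and none of the 9 genes differed in any of the 3 comparisons (0% of all genes were called). For Hsp90ab1 these differences were 0.02 ± 0.11, -0.03 ± 0.23 and 0.06 ± 0.29 on the log2 scale. For Hspa4, whose estimate in excitatory neurons was near 0, they were 0.25 ± 0.12, 0.00 ± 0.21 and 0.43 ± 0.26.

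**Figure D4:**
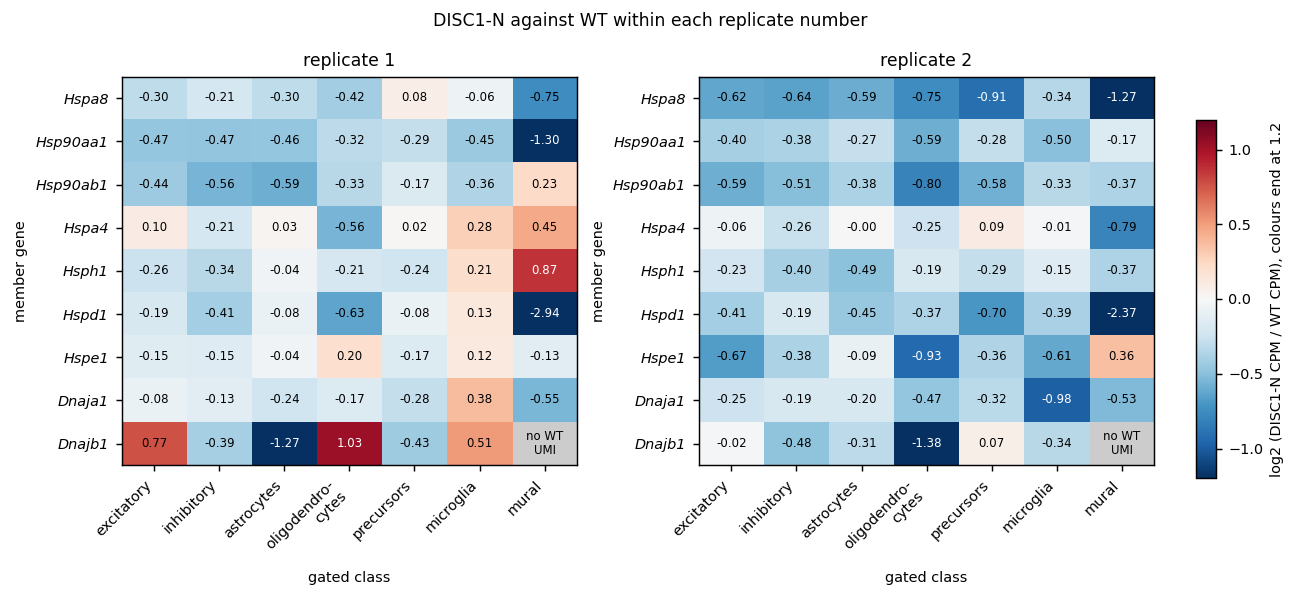
Log2 ratio of DISC1-N to WT CPM for each gene (rows) and tested class (columns), replicate 1 on the left and replicate 2 on the right; blue is lower in DISC1-N and red higher. Hsp90aa1 is negative in all 14 cells, from -0.17 to -1.30, while Hspa4 lies near 0 in excitatory neurons, astrocytes and precursors; mural cells rest on as few as 20 nuclei.

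Among neuron subtypes, gated by UMIs of their naming genes, calls were again made only with the block. In Adarb2 interneurons without Vip (792 nuclei), Hspa8 stood at 239, 146, 148 and 82.4 CPM and Hsp90ab1 at 298, 178, 139 and 88.8. Both DISC1-N values of Hspa8 lay just below both WT values, a pattern that 14.3% of genes had there. Hspa8 and Hsp90ab1 passed (-0.74 ± 0.16, adjusted p = 0.00280, and -0.65 ± 0.15, adjusted p = 0.0161, by edgeR), 2 of the 8 members tested where 0.206% of genes were called lower. In Rspo2 excitatory neurons (1532 nuclei), Hsp90ab1 at 146, 108, 80.3 and 56.6 CPM (-0.45 ± 0.09, adjusted p = 4.33e-04) and Hspa8 at 103, 88.9, 66.4 and 42.5 CPM (-0.39 ± 0.10, adjusted p = 0.0277) passed with the block (0.202% of genes called lower). Excitatory nuclei with a Wfs1 UMI, a deep subset of 511 nuclei named for an endoplasmic reticulum membrane protein gene, had Hsp90aa1 at 139.7, 88.5, 59.6 and 45.6 CPM (-0.61 ± 0.13, adjusted p = 0.0209 with the block; 0.125% called lower). No member was called by edgeR in Vip, Sst, Foxp2 or Rorb-high neurons, where the block fit called 0.0258%, 0.0132%, 0.0207% and 0.102% of all genes lower. In Vip neurons 1 of 6 tested members had an unadjusted p under 0.05 with the block, as had 230 of 3872 genes. In Sst neurons 3 of 8 had (450 of 7571 genes) and in Foxp2 neurons 1 of 7 (267 of 4822). Rorb-high neurons had 2 of 6 (231 of 4889 genes). Without the block 0.0409% of genes were called lower in Rorb-high neurons and 0% in the others, with no member among them. Foxp2 GABA neurons without Penk (247 nuclei) departed from the rest in replicate 2, where Hsp90ab1 was 134 in WT and 165 CPM in DISC1-N and Hsp90aa1 75.0 and 89.4. Subtypes are contained in their class, so they repeat part of its data.

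In excitatory neurons no gene of the wider chaperone network was called. Of 48 co-chaperones, small heat shock proteins, heat shock factors and mitochondrial folding genes, 45 were measured in excitatory neurons; 24 estimates were below 0 with the block, and the median was -0.01. With the block, 34 of 42 were below 0 in mature oligodendrocytes (median -0.17), 28 of 43 in inhibitory neurons (-0.06) and 27 of 40 in precursors (-0.11). Astrocytes had 26 of 45 below 0 (-0.05) and microglia 21 of 39 (-0.09). Again none was called in these classes. Differences between lists were not tested. Those of lowest p in excitatory neurons were Hspa2, a further Hsp70 (6.83, 3.97, 4.27 and 3.60 CPM; -0.54 ± 0.23, adjusted p = 0.474 by edgeR), the Hsp90 co-chaperone Ptges3 (51.7, 46.3, 53.3 and 46.9 CPM; -0.17 ± 0.09), the Hsp90 activator Ahsa1 (30.5, 27.5, 21.2 and 17.5 CPM; -0.21 ± 0.11) and Grpel2, an exchange factor of mitochondrial Hsp70 (9.67, 10.9, 10.3 and 12.9 CPM; 0.25 ± 0.15). Ptges3 was lower in DISC1-N in both pairs but hardly differed between replicate numbers, unlike Hsp90aa1. Other lists in excitatory neurons had a larger share of estimates below 0 with the block, beside a median over all genes of -0.00. These were 13 of 13 chaperones of the endoplasmic reticulum (median -0.26, with Hspa5, Hsp90b1 and Pdia6 called by edgeR) and 7 of 8 subunits of the cytosolic chaperonin CCT (median -0.13, 0 called). Outside protein folding they were 12 of 14 measured immediate early genes, which respond to activity (median -0.29, Egr1 called). The block fit called 0.457% of all genes lower, and without the block no gene of these lists was called.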

How the data were processed

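The matrices the authors deposited hold raw UMI counts (genes by nucleus barcodes) from Cell Ranger and an mm10 reference, per the file headers and the submitters' processing notes; libraries were 10x 3' v3, per the labels' protocols. The headers give version 7.0.0 for replicate 1 and 6.0.2 for replicate 2, the notes 7.0.0. How barcodes were called as nuclei is not given in the sources used here.

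A nucleus joined a class with at least 3 marker UMIs from at least 2 markers and 3 times those of the next class, which leaves out mixed nuclei; no doublet caller was run. Sums over the nuclei of a class were made for every library, and a class needed 20 nuclei in its smallest library to be tested, with edgeR 4.0.16 in R 4.3.3 (quasi-likelihood, TMM, filterByExpr with a minimum count of 10, Benjamini-Hochberg over all genes, call under 0.05). DESeq2 1.42.0 and limma 3.58.1 (voom) were alternatives. A 2-sided exact permutation of 2 against 2 libraries cannot go below 0.333 and was not used. The labels do not say that replicate numbers pair mice, and the header version makes the number a processing batch. Deviations of same-numbered libraries from their genotype means correlated at 0.647 in excitatory neurons, 0.520 in inhibitory neurons and 0.572 in astrocytes. The correlation was 0.558 in mature oligodendrocytes, 0.562 in mural cells, and lowest in precursors (0.337) and microglia (0.380). On simulated counts of excitatory neurons (16204 genes) the fit without the block recovered 0% of genes changed 1.5-fold or 2-fold; with it 62% and 82% were recovered, with 6 false calls. In inhibitory neurons (13326 genes) the block fit recovered 54% and 81%, and in astrocytes (12354 genes) 29% and 69%. The simulated counts gave both genotypes the same mean per replicate number, apart from the changed genes, and the spread of the block fit. Recovery with the block was therefore favoured by construction and does not show that the block suits these data.

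Gene models came from GENCODE vM21, which holds 32158 of the 32285 Ensembl IDs. Members, lists, gates and tests were chosen with earlier results of these data known. Named genes are the 9 members, called genes and the 4 of lowest p of the chaperone network, and genes of highest likeness. The likeness search left out mitochondrially encoded genes, unnamed models and genes with ribosomal protein symbols. Nuclear genes of mitochondrial proteins stayed in. Called genes of the other lists were named after their values were seen. A gene of high likeness is not reported here.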

Additional observations from a re-analysis of the deposited data

Results flagged for a closer look

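Hspa4, the exchange factor of the Hsp110 type, was lower in DISC1-N in both replicate numbers in inhibitory neurons and in mature oligodendrocytes, and higher in both in oligodendrocyte precursors. The mean log2 ratio was -0.24 in inhibitory neurons and 0.06 in precursors, a difference of -0.29. It was -0.40 in mature oligodendrocytes, a difference of -0.46 from precursors. These 2 differences were noticed because every pair of one class moved one way and every pair of the other the opposite way; they were not tested. In precursors Hspa4 stood at 102 and 103 CPM in replicate 1 and at 65.8 and 70.2 in replicate 2, WT first, so the rise there was small.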

How the results depend on the processing

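Without the block on replicate number, leaving out 1 library gave 0 to 1 member calls in excitatory neurons and 0 to 1 in inhibitory neurons, and no other alternative gave one. Both calls were Hsp90aa1 without DISC1-N replicate 1 (-1.09, adjusted p = 0.0405, and -1.24, adjusted p = 0.0379, by edgeR). With the replicate block, members called in excitatory neurons were 3 by edgeR, 1 by DESeq2, 3 by limma-voom, 3 with library size only, 3 with DESeq2 size factors, 3 at a mean CPM of at least 20, 2 under 1% mitochondrial UMIs, 4 without nuclei above 3 times the median depth, 3 under the stricter gate and 0 under 0.1% mitochondrial UMIs. In the same order, inhibitory neurons gave 1 by edgeR, where 17 of 13566 genes were called in either direction. They gave 2 by limma-voom (37 of 13566 genes) and 3 with library size only (105 of 13566). With DESeq2 size factors they gave 3 (60 of 13566), and at a mean CPM of at least 20 also 3 (99 of 7297). They gave 3 under 1% (50 of 13543), 3 under the depth limit (142 of 13464) and 2 under the stricter gate (59 of 11529). Astrocytes gave 1 by edgeR (19 of 12596) and 2 with library size only (29 of 12596). With DESeq2 size factors they gave 2 (31 of 12596), and at a mean CPM of at least 20 gave 1 (11 of 7688). They gave 2 under 1% (29 of 12569) and 2 under the depth limit (25 of 11960). Mature oligodendrocytes gave 2 at a mean CPM of at least 20 (14 of 7623) and 2 under the stricter gate (24 of 10078), with the block. The block alone gave 2 in Adarb2 interneurons, 2 in Rspo2 neurons and 1 in nuclei with a Wfs1 UMI. Settings that add the block to a scaling, a filter, the depth limit or the stricter gate, and those under 0.1% mitochondrial UMIs, were chosen after seeing the data. Neighbouring classes called in Hspa4 went from 1 to 0 with library size only and 0 under the stricter gate, and in Hspd1 from 1 to 2 and 0. Leaving out 1 library gave 0 to 1 in Hspa4, 0 to 2 in Hspd1, 1 to 2 in Hspe1, 2 to 3 in Hspa8, 2 to 3 in Hsp90ab1 and 0 in Dnaja1; the full data gave 1, 1, 2, 3, 3 and 1. Of 590 alternatives for 32 single-gene fold changes that kept all libraries, 7 reversed: Hspd1 in inhibitory neurons under 0.1% mitochondrial UMIs (0.18, and 0.11 with the block), Hspa4 in astrocytes at 1000 genes per nucleus (-0.0086), and Hspe1 in astrocytes with thinned sums (0.011), under 0.1% mitochondrial UMIs (0.060), and under the stricter gate (0.079, and 0.059 with the block). The cause was not tested. Leaving out 1 library without the block reversed 19 results. Such a fit sets 1 replicate number against both, and the part of this in the reversals was not tested. Excitatory ranges were -1.09 to 0.26 for Hsp90aa1, -0.18 to 0.23 for Hspa4, -0.88 to 0.047 for Hspe1, -0.40 to 0.079 for Dnaja1 and -0.27 to 0.98 for Dnajb1. Inhibitory ranges were -0.96 to 0.10 for Hspa8, -1.24 to 0.44 for Hsp90aa1, -0.62 to 0.057 for Hspd1, -0.77 to 0.22 for Hspe1 and -0.39 to 0.095 for Dnaja1. Astrocyte ranges were -0.93 to 0.0077 for Hspa8, -1.14 to 0.50 for Hsp90aa1, -0.24 to 0.29 for Hspa4, -0.53 to 0.047 for Hsph1, -0.67 to 0.16 for Hspd1, -0.36 to 0.23 for Hspe1 and -0.53 to 0.15 for Dnaja1. Those of Hspa8 in Rspo2 neurons were -0.92 to 0.039 and of Hsp90aa1 in nuclei with a Wfs1 UMI -1.12 to 0.16. With the block, a left-out library leaves no residual degree of freedom, so each block result rests on all 4 libraries. Over all genes tested in excitatory neurons, calls were 0 without the block (0 to 29 with 1 library left out), 135 by edgeR with it, 12 by DESeq2 and 141 by limma-voom with it, 14 under 1% and 10 under 0.1% mitochondrial UMIs, and 80 under the stricter gate. Also with the block, excitatory calls over all genes were 222 with library size only and 144 with DESeq2 size factors. They were 103 of 6805 genes at a mean CPM of at least 20 and 188 of 15823 under the depth limit. Dnajb1, with few molecules, and mural cells, with as few as 20 nuclei in a library, are limited by depth.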
